A study of Homo sapiens with 9 samples.

Results

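Transcripts of 10 genes of zinc and copper handling were followed in MDA-MB-231 cells, an established human triple-negative breast cancer (TNBC) line, with and without TEPA, a polyamine that chelates copper. The genes are the metallothioneins MT1E, MT1X and MT2A, the transcription factor MTF1, and the zinc transporters SLC30A1, SLC30A4, SLC30A5, SLC30A6, SLC30A7 and SLC30A9. They were taken by name as 10 of the 59453 gene names in the count table, and all 10 had enough reads to be tested.

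RNA-Seq had been performed on 3 groups of 3 libraries, namely untreated cells, cells treated with TEPA for 8 h and cells treated with TEPA for 24 h. All groups grew in flasks of DMEM with fetal bovine serum. The TEPA concentration is 8 mM in the sample labels and 4 mM in the sequencing methods. One set of untreated libraries, whose harvest time the labels do not give, served both exposures, so time in culture and time in TEPA cannot be told apart. The labels do not say whether the libraries of a group came from separate cultures, so the p-values measure the spread between these libraries, which may be technical. MDA-MB-231 is a single line, and in bulk RNA a smaller share of cells that express a gene and less RNA per cell cannot be told apart.

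Total counts ran from 34633755 to 49342659 per library. The share of counts from mitochondrially encoded genes was 1.79 to 2.91% in untreated libraries, 3.61 to 4.02% at 8 h and 1.89 to 2.02% at 24 h, and the calls of the 10 genes were the same when those genes were left out. Transcripts of VIM, CD44, KRT8, KRT18 and EGFR, which mark this line, were present in every library, while PGR had 0 counts in all of them and ESR1 at most 9. CDH1, low in this line, stood at 0.624, 0.351 and 3.19 CPM (counts scaled to a common library size) in untreated, 8 h and 24 h cells. Of 8 markers of fibroblasts, leukocytes and endothelium, 3 had enough reads to be tested. The summed level of all 8 was 16.9 to 18.9 CPM in untreated libraries, 33.5 to 34.3 CPM at 8 h and 26.5 to 27.1 CPM at 24 h. Among them COL1A1 stood at 13.7, 32.4 and 18.0 CPM and PECAM1 at 3.59, 1.06 and 8.13 CPM in the same order of groups, CD68 had at most 15 counts, and COL1A2, DCN, LUM, PTPRC and CDH5 at most 13. Their part in the results was not tested.

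Metallothioneins are small cytosolic proteins whose many cysteines bind zinc and copper through their sulfur atoms. When free zinc rises, including zinc displaced from metallothionein by copper, the zinc-finger protein MTF1 binds metal response elements in promoters and switches on metallothionein genes and SLC30A1. Most SLC30 proteins carry zinc out of the cytosol, SLC30A1 across the plasma membrane and others into vesicles or the secretory pathway, while SLC30A9 acts at mitochondria. The study used MT1X as a surrogate measure of intracellular copper.

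The 3 metallothionein genes lie together on chromosome 16 on the plus strand of hg38, MT2A at chr16:56608584-56609497, MT1E at chr16:56625475-56627112 and MT1X at chr16:56682470-56684196. Their coding sequences, read from the GENCODE transcripts, are shown because reads are told apart between these genes only by the bases in which they differ. Each is printed 5′ to 3′ without its stop codon, with the cysteine codons in capitals.
MT2A: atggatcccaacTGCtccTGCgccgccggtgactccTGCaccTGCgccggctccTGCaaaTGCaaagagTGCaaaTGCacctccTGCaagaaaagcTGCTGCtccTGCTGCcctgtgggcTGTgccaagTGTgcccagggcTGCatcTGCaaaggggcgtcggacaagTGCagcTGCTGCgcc
MT1E: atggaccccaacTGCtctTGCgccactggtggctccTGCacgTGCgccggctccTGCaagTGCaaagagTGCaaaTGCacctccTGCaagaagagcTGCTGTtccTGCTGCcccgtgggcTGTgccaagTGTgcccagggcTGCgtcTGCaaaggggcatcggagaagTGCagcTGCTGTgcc
MT1X: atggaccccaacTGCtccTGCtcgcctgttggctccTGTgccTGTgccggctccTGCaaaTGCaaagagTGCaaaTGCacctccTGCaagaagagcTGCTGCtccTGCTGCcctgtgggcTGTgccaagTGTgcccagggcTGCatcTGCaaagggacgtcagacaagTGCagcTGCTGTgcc
Each sequence held 61 codons in 3 coding exons, and 20 of them (32.8%) were cysteine codons. All 20 cysteine codons stood at the same positions in the 3 genes. MT2A shared 169 of 183 bases (92.3%) with MT1E and also 169 (92.3%) with MT1X, while MT1E and MT1X shared 166 (90.7%). No window of 100 bases, the length of 1 read, in the MT2A or MT1E transcript recurred in a transcript of another gene. In MT1X, 67 of 305 such windows (22%) also lay in an unnamed gene on the same strand, so MT1X counts may leave out or share reads with it.

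The metal response element is commonly written TGCRCNC, which stands for TGCACNC or TGCGCNC. Both forms were searched on both strands in the 250 bases before the gene start, and matches did not overlap each other in the sequences printed here. Promoters are shown for MT2A, MT1X and SLC30A1, whose transcripts fell by more than 1 on the log2 scale at both times. SLC30A5 and SLC30A9 also fell at both times, but by less, and their promoters are not shown. The sequences are from RefSeq (GRCh38.p14), in the direction of transcription, with matches in capitals. SLC30A1 lies on the minus strand.
MT2A chr16:56608334-56608583: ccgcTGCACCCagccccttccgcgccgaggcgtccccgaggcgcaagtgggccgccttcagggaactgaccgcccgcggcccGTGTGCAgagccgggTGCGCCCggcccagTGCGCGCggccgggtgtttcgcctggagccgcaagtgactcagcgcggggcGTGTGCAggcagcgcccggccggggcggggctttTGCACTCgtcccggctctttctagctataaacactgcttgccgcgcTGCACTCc
MT1X chr16:56682220-56682469: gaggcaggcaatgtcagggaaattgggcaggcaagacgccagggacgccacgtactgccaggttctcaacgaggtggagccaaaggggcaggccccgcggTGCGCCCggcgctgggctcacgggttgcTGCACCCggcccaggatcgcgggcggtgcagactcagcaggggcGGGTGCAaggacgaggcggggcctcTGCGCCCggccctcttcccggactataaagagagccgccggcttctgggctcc
SLC30A1 chr1:211579162-211579411: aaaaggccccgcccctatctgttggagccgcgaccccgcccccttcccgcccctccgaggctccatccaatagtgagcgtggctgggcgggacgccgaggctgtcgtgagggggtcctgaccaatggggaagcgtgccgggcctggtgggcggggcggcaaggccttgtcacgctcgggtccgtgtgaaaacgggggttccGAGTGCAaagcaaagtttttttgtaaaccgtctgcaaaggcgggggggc
MT2A had 7 matches, and 0.0313% of the 35116 promoters searched had as many or more. MT1X had 4 matches, which 0.37% of promoters reached. SLC30A1 had 1 match, as did SLC30A4 and SLC30A6, and 24.8% of promoters had at least 1. MTF1, SLC30A5, SLC30A7 and SLC30A9 had 0 matches in these windows, and MT1E was not searched. A match describes letters in the window and not a bound site.

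**Figure D1:**
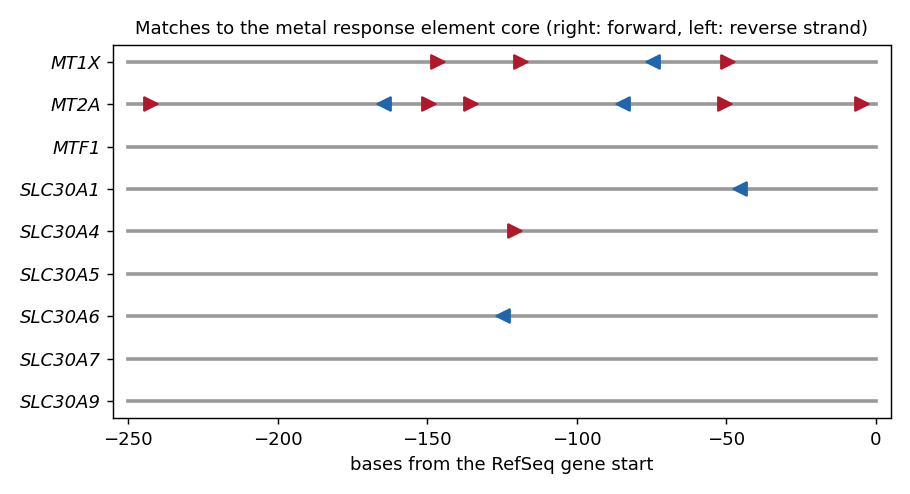
Positions of matches to the metal response element letters in the 250 bases before the start of 9 genes, with the distance to the gene start in bases on the horizontal axis and 1 gene per row, matches on either strand marked. MT2A carried 7 matches and MT1X 4, while SLC30A1, SLC30A4 and SLC30A6 carried 1 each.

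Metallothionein transcripts were lower in all TEPA libraries than in any untreated library. Their summed level was 259 ± 24.97 CPM (SD, n = 3) in untreated cells. With TEPA it was 116 ± 7.29 CPM at 8 h, then 81.2 ± 11.1 CPM at 24 h. MT2A, MT1E and MT1X together held 98.96 to 99.61% of the counts of all 21 metallothionein rows in each library, pseudogenes included, so that adding the other rows gave 260.4 ± 25.2, 117 ± 7.25 and 81.8 ± 11.05 CPM.

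MT2A, the most abundant metallothionein in these cells, stood at 218, 204 and 248 CPM in the untreated libraries. At 8 h its libraries gave 93.4, 108 and 101 CPM, and at 24 h 68.8, 86.2 and 65.9 CPM. The 3 groups did not overlap, with the untreated libraries highest and the 24 h libraries lowest. MT2A fell by 1.15 on the log2 scale at 8 h (SE 0.09, 2.21-fold lower, adjusted p = 6.1e-08 by edgeR's quasi-likelihood test with Benjamini-Hochberg adjustment, as for all adjusted p-values of fold changes here). At 24 h it fell by 1.60 against untreated cells (SE 0.09, 3.03-fold lower, adjusted p = 9.7e-10). The further step from 8 h to 24 h was a log2 fold change of -0.46 (SE 0.09, adjusted p = 0.00043).

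MT1E, which encodes another metal-binding copy of the family, stood at 26.0, 24.9 and 29.2 CPM in untreated libraries. It gave 10.9, 10.6 and 11.1 CPM at 8 h, and 5.10, 5.07 and 5.09 CPM at 24 h. The groups were again separate. The SD at 24 h, 0.0134 CPM, was below the counting error of 260, 219 and 183 counts, so it understates the error. MT1E fell by 1.30 on the log2 scale at 8 h (SE 0.07, 2.46-fold lower, adjusted p = 1.9e-09) and by 2.39 at 24 h (SE 0.08, 5.24-fold lower, adjusted p = 3.7e-12). Between 8 h and 24 h its log2 fold change was -1.09 (SE 0.08, adjusted p = 2.2e-08). Of the 16556 genes tested, 226 had a lower log2 fold change than MT1E at 8 h and 29 at 24 h.

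MT1X stood at 8.85, 8.95 and 9.03 CPM in untreated libraries. It gave 4.37, 4.24 and 4.22 CPM at 8 h, and 1.92, 2.78 and 2.89 CPM at 24 h. The groups did not overlap, and the first 24 h library lay below the other 2. MT1X fell by 1.06 on the log2 scale at 8 h (SE 0.11, 2.09-fold lower, adjusted p = 2e-06), and its log2 fold change at 24 h was -1.84 (SE 0.12, 3.58-fold lower, adjusted p = 6.9e-09). From 8 h to 24 h the log2 fold change was -0.78 (SE 0.13, adjusted p = 0.00013).

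The study measured MT1X by real-time PCR against GUSB, a lysosomal glucuronidase. GUSB stood at 108 ± 2.38, 111 ± 1.34 and 108 ± 3.86 CPM in untreated, 8 h and 24 h cells, with log2 fold changes against untreated of 0.05 (adjusted p = 0.34) and 0.01 (adjusted p = 0.91). The number of MT1X counts per GUSB count was 0.0803, 0.0843 and 0.0851 in the untreated group. It was 0.0392, 0.0378 and 0.0385 after 8 h of TEPA and 0.0183, 0.0247 and 0.0272 after 24 h. On that scale, which needs no scaling between libraries, the mean ratio was 2.16-fold lower at 8 h and 3.56-fold lower at 24 h, and the groups did not overlap. The exact two-sided permutation test gave p = 0.1 for each (0.12 adjusted over 12 ratio tests), the smallest value that 3 libraries against 3 allow.

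The proportions among the 3 metallothioneins were compared within each library. There were 8.38, 8.20 and 8.51 MT2A counts per MT1E count in the untreated group, 8.59, 10.2 and 9.15 after 8 h of TEPA, and 13.5, 17.0 and 13.0 after 24 h. These ratios were higher in all TEPA libraries than in the untreated ones, but the exact permutation p of 0.1 at each time (0.12 adjusted) cannot pass 0.05 at this size. MT2A made up 86.2 ± 0.444% of the counts of the 3 genes in untreated cells and 90.5 ± 1.24% at 24 h, while MT1E went from 10.3 ± 0.140% to 6.34 ± 0.818%. The number of MT2A counts per MT1X count overlapped between groups, at 24.98 ± 2.38, 23.6 ± 2.14 and 29.9 ± 6.58, with exact permutation p = 0.5 at 8 h and p = 0.4 at 24 h (0.5 and 0.436 adjusted).

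**Figure D2:**
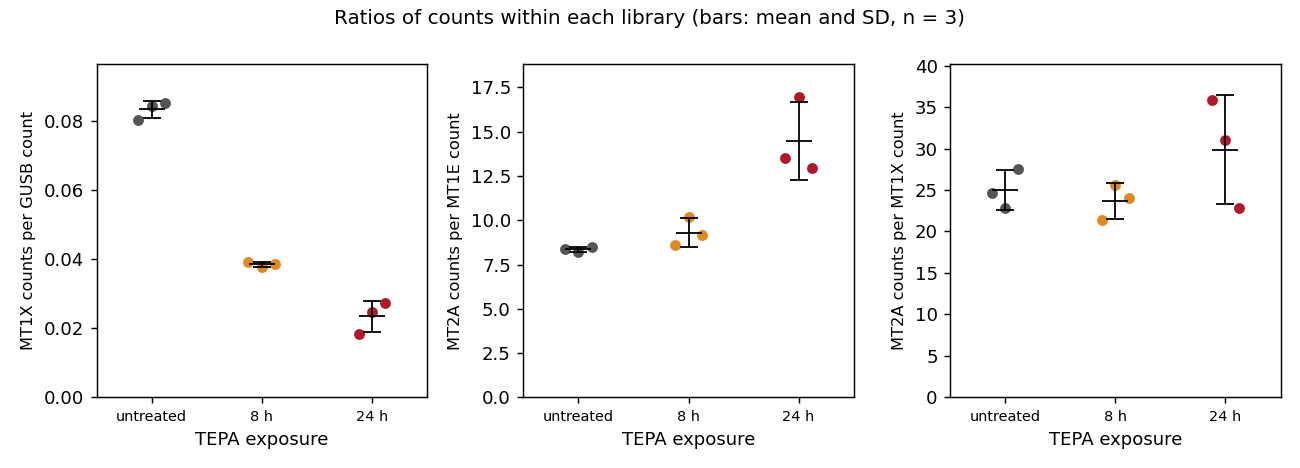
Counts of one gene per count of another in each library (points, with the mean and SD of 3 libraries as bars) for untreated cells and cells treated with TEPA for 8 h or 24 h. MT1X per GUSB was lowest at 24 h, at 0.0183 to 0.0272, whereas MT2A per MT1E was highest at 24 h, at 13.0 to 17.0.

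Counts of the remaining metallothionein genes were low. Of 10 further members listed, including MT1A, MT1F, MT1G, MT1M and MT3, 0 passed the filter on low counts, and the highest count of any of them in any library was 10. MT1A had 3 to 10 counts per library, and MT1M and MT3 had 0 counts throughout. The 7 metallothionein pseudogenes listed reached at most 4 counts. The last of the 21 rows, MT2P1, an MT2 pseudogene that was in neither list and was singled out after its values were seen, had 30, 31 and 40 counts in the untreated group, 21, 21 and 16 at 8 h, and 12, 8 and 10 at 24 h. MT2P1 was tested and fell, with log2 fold changes of -0.71 (adjusted p = 0.034) and then -1.83 (adjusted p = 8.2e-05). Reads of such a copy may come from MT2A. No window of 100 bases of the MT2A transcript recurred exactly in another gene's transcript, but near matches were not searched.

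MTF1, the zinc-sensing activator of these genes (chr1:37809574-37859592, minus strand), showed no such decrease. It stood at 37.1, 36.3 and 36.7 CPM in untreated libraries, 36.7, 36.3 and 35.1 CPM at 8 h, and 42.9, 44.02 and 41.4 CPM at 24 h. The 8 h libraries overlapped the untreated ones, and the 24 h libraries were above both. Its log2 fold change at 8 h was -0.03 (SE 0.04, 95% interval -0.12 to 0.07, adjusted p = 0.65). At 24 h MTF1 rose by 0.22 on the log2 scale (SE 0.04, 1.16-fold, adjusted p = 0.00059), and from 8 h to 24 h by 0.25 (SE 0.04, adjusted p = 0.00021). These are transcript levels, and neither MTF1 protein nor its binding to DNA was measured here.

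SLC30A1 is the exporter that carries zinc across the plasma membrane (chr1:211571568-211579161, minus strand). It stood at 59.8, 65.8 and 71.4 CPM in untreated libraries, 34.9, 30.6 and 30.8 CPM at 8 h, and 29.8, 28.3 and 34.4 CPM at 24 h. The untreated libraries were all higher than the TEPA libraries, and the TEPA groups overlapped each other. SLC30A1 fell by 1.03 on the log2 scale at 8 h (SE 0.08, 2.04-fold lower, adjusted p = 4.4e-08) and by 1.09 at 24 h (SE 0.08, 2.14-fold lower, adjusted p = 1.1e-08). The difference between 24 h and 8 h was -0.06 (SE 0.08, 95% interval -0.23 to 0.10, adjusted p = 0.52).

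SLC30A4, a zinc transporter of vesicles (chr15:45479606-45522755, minus strand), was the scarcest of the 10 transcripts per kilobase. In CPM it stood at 5.65, 4.57 and 4.79 CPM in untreated libraries, 4.27, 4.97 and 4.14 CPM at 8 h, and 2.84, 3.43 and 3.70 CPM at 24 h. The 24 h libraries lay below all others, while the 8 h and untreated libraries overlapped. Its log2 fold change was -0.16 at 8 h (SE 0.12, 95% interval -0.43 to 0.10, adjusted p = 0.3), and it fell by 0.60 at 24 h (SE 0.13, 1.51-fold lower, adjusted p = 0.00092). The log2 fold change of 24 h against 8 h was -0.43 (SE 0.13, adjusted p = 0.0095), and this call was lost without the second 8 h library (adjusted p = 0.059) or without the first 24 h library (adjusted p = 0.066).

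SLC30A5 and SLC30A6 form a heterodimer, and SLC30A7 a homodimer, that load zinc into enzymes of the early secretory pathway. SLC30A5 (chr5:69093991-69131069, plus strand) stood at 84.9, 81.8 and 82.9 CPM in untreated libraries, 71.0, 68.6 and 64.1 CPM at 8 h, and 72.0, 67.9 and 71.3 CPM at 24 h. All its TEPA libraries were below the untreated ones, with log2 fold changes of -0.29 at 8 h (SE 0.04, adjusted p = 5.2e-05) and -0.24 at 24 h (SE 0.04, adjusted p = 0.00025). Its partner SLC30A6 (chr2:32165841-32224379, plus strand) overlapped between groups, at 38.9 ± 2.57, 35.6 ± 2.01 and 35.8 ± 2.40 CPM. The log2 fold changes of SLC30A6 were -0.13 at 8 h (95% interval -0.26 to 0.01, adjusted p = 0.1) and -0.12 at 24 h (95% interval -0.25 to 0.01, adjusted p = 0.12). Without the first untreated library, at 36.0 CPM the lowest of its group, these became -0.18 (adjusted p = 0.02) and -0.17 (adjusted p = 0.021), and without the first 8 h library the 8 h value became -0.18 (adjusted p = 0.043).

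SLC30A7 (chr1:100896076-100981757, plus strand) stood at 44.4, 43.7 and 46.2 CPM in untreated libraries, 49.5, 42.6 and 44.2 CPM at 8 h, and 49.9, 44.2 and 54.3 CPM at 24 h. The groups overlapped, and the second 24 h library was within the untreated range. Its log2 fold changes were 0.02 at 8 h (SE 0.07, 95% interval -0.13 to 0.17, adjusted p = 0.82) and 0.14 at 24 h (SE 0.07, adjusted p = 0.093). Without the second 24 h library the 24 h value was 0.22 (adjusted p = 0.011).

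SLC30A9, a mitochondrial zinc transporter (chr4:41990502-42090461, plus strand), stood at 52.1, 53.8 and 52.7 CPM in untreated libraries, 44.3, 42.8 and 40.9 CPM at 8 h, and 44.1, 40.6 and 50.6 CPM at 24 h. The untreated libraries were the 3 highest of the 9, with the third 24 h library next to them. SLC30A9 fell by 0.31 on the log2 scale at 8 h (SE 0.06, adjusted p = 0.00082) and by 0.23 at 24 h (SE 0.06, adjusted p = 0.0058).

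**Figure D3:**
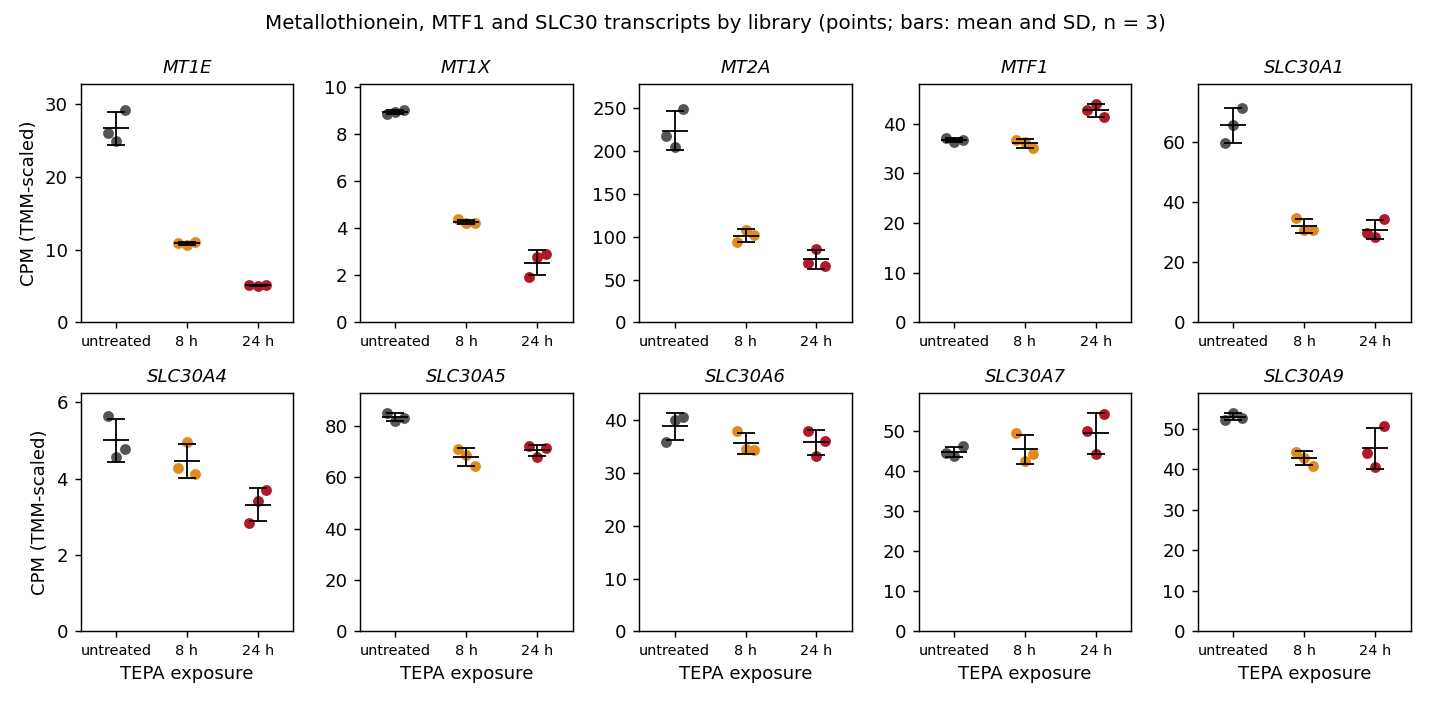
Level of each of the 10 transcripts in CPM, scaled between libraries by TMM factors, on axes starting at 0, in untreated cells and after 8 h and 24 h of TEPA (points are libraries, bars the mean and SD of 3). MT1E, MT1X, MT2A, SLC30A1, SLC30A5 and SLC30A9 were separate from the untreated libraries at both times. SLC30A4 was lower and MTF1 higher than all untreated libraries at 24 h alone. Of all genes tested, 57.8% were separate at 8 h and 57.2% at 24 h.

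Of the 10 genes, 6 fell at 8 h, 0 rose and 4 were not called, and their median was -0.30 on the log2 scale. Over all 16556 genes tested, 24.5% were called lower and 25.2% higher, and the median was -0.00. At 24 h, 7 of the 10 fell, 1 rose and 2 were not called, with a median of -0.42, against 26.8% of all genes called lower, 25.7% called higher and a median of 0.00. Libraries did not overlap between TEPA and untreated for 6 of the 10 genes at 8 h and 8 at 24 h, which also held for 57.8% and 57.2% of all genes. The genes that fell by more than 1 on the log2 scale were MT1E, MT1X, MT2A and SLC30A1 at both times, 4 of 10, against 2.45% of all genes at 8 h and 2.83% at 24 h. That limit was chosen after the values were seen.

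The 24 h libraries were also set against the 8 h libraries, within the same fit of all 9 libraries. Here 4 of the 10 genes were lower (MT1E, MT1X, MT2A and SLC30A4), 1 was higher (MTF1) and 5 were not called, with a median of -0.03. Of all genes, 28.8% were lower and 26% higher in this comparison, with a median of -0.02. With only these 2 groups fitted, 4541 of 16238 genes were lower and 4910 higher. The libraries of the 2 exposures did not overlap for 5 of the 10 genes and for 62% of all genes. MT1E alone passed a decrease of 1 on the log2 scale, as did 3.83% of all genes. SLC30A5, SLC30A6, SLC30A7 and SLC30A9 had log2 fold changes between 8 h and 24 h of 0.05, 0.01, 0.12 and 0.08 (adjusted p = 0.34, 0.93, 0.15 and 0.32).

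**Figure D4:**
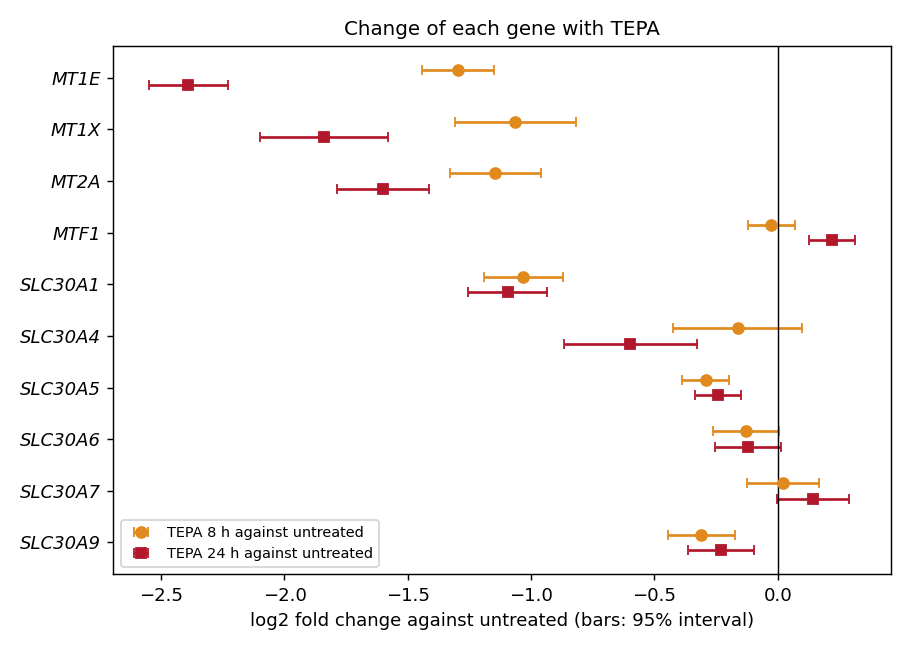
Log2 fold change of each of the 10 genes, with 95% intervals as bars, for 8 h and for 24 h of TEPA against the same untreated libraries. MT1E, MT2A, MT1X and SLC30A1 lay below -1 at both times, and MT1E reached -2.39 at 24 h.

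**Figure D5:**
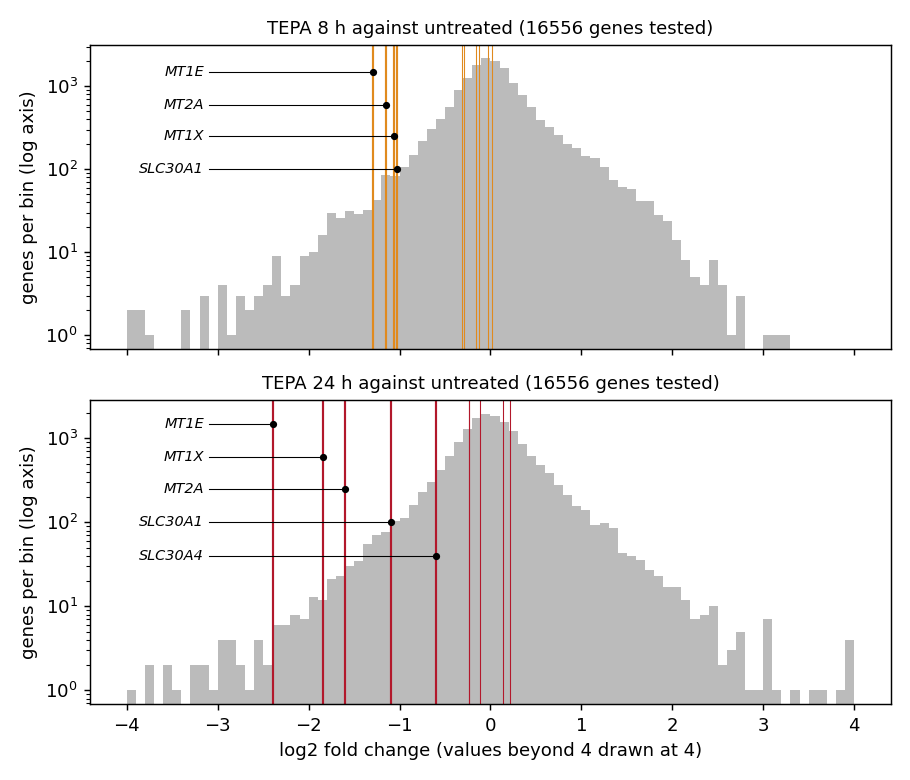
Histogram of log2 fold changes of the 16556 genes tested (number of genes per bin, log axis), with vertical lines at the 10 genes, for 8 h (upper) and 24 h (lower) of TEPA against untreated cells. At 24 h, 29 genes lay below MT1E, 73 below MT1X, 122 below MT2A and 395 below SLC30A1.

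Levels of different genes were compared as CPM per kilobase of the annotated canonical transcript. For MT1E that transcript, of 746 bases, is not the one of 704 bases whose coding sequence and windows are given above. Lengths were not corrected for the size of the sequenced fragments. The short metallothionein transcripts (MT2A 401 and MT1X 404 bases) may therefore stand too low beside longer ones. Their places in the order are thus uncertain, and this was not tested. In untreated cells the order was MT2A (557 ± 56.6), MT1E (35.8 ± 3.0), MT1X (22.1 ± 0.219), SLC30A5 (20.8 ± 0.388), SLC30A1 (11.1 ± 0.983), SLC30A9 (8.58 ± 0.141), SLC30A6 (7.65 ± 0.505), SLC30A7 (5.46 ± 0.160), MTF1 (4.63 ± 0.0518) and SLC30A4 (0.704 ± 0.0801). No gene overlapped its neighbour in that order. Some of these SDs were below counting error, as for MT1X from 332, 409 and 356 counts, so its separation from SLC30A5 is uncertain. At 24 h MT2A was still first at 184 ± 27.3 CPM per kilobase and SLC30A5 was second at 17.6 ± 0.553. On this uncorrected scale, MT1E (6.82 ± 0.0180) and MT1X (6.27 ± 1.31) had dropped among the exporters and MTF1. The SD of MT1E at 24 h was below its counting error on either transcript length, so it does not fix its place. From SLC30A9 at 7.32 ± 0.821 down to SLC30A1 at 5.23 ± 0.534, each gene then overlapped the next. Per kilobase of the shorter transcript, a choice made after the values were seen, MT1E was 37.9 ± 3.18 in untreated cells, 15.4 ± 0.309 at 8 h and 7.23 ± 0.0190 at 24 h, where it came between SLC30A9 and SLC30A6. At 8 h the overlapping neighbours were SLC30A6 with SLC30A9 and SLC30A7 with SLC30A1.

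Among the remaining zinc exporters listed, SLC30A3, a vesicular zinc transporter, was the only one of 5 with enough reads. It went from 3.75 ± 0.513 CPM in untreated cells to 3.09 ± 0.412 at 8 h (log2 fold change -0.27, adjusted p = 0.13) and fell to 2.04 ± 0.264 at 24 h (log2 fold change -0.89, adjusted p = 0.00013). SLC30A2 and SLC30A8 had 0 counts, SLC30A10 at most 2 and TMEM163 at most 18.

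Of 10 further genes listed as MTF1 targets, not split by whether it activates or represses them, 9 were tested, HAMP being too low. At 8 h 3 of these rose and 5 fell, and their median was -0.26 on the log2 scale. At 24 h 1 rose and 6 fell, and the median was -0.51. The shares over all genes tested were 25.2% higher and 24.5% lower at 8 h, and 25.7% and 26.8% at 24 h. The one that rose at both times was SLC39A10, a zinc importer of the plasma membrane that MTF1 is known to repress when zinc is high. SLC39A10 stood at 71.5, 69.5 and 72.7 CPM in untreated libraries, 165, 151 and 147 CPM at 8 h, and 176, 162 and 183 CPM at 24 h. It rose by 1.12 on the log2 scale at 8 h (SE 0.05, adjusted p = 5.3e-10) and by 1.29 at 24 h (SE 0.05, adjusted p = 3.8e-11). SLC39A10 and SLC30A1 carry zinc in opposite directions across the same membrane. The number of SLC39A10 counts per SLC30A1 count was 1.09 ± 0.0939, 4.82 ± 0.103 and 5.66 ± 0.296 in untreated, 8 h and 24 h cells. SLC39A10 rose and SLC30A1 fell at both times, so a higher ratio followed from the choice of this pair. Zinc transport was not measured here.

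SLC40A1, the iron exporter ferroportin, fell on the log2 scale with -1.43 at 8 h, then -1.05 at 24 h (adjusted p = 0.00046 and 0.0027). Its level was low, at 1.06, 0.394 and 0.511 CPM in untreated, 8 h and 24 h cells. GCLC, of glutathione synthesis, fell with -0.26 and -0.51 (adjusted p = 0.00069 and 7.9e-07). CSRP1, a LIM-domain protein, fell with -0.91 and -1.65 (adjusted p = 8.4e-10 and 1.7e-12). The transcription factor CEBPA fell with -1.74 and -2.17 (adjusted p = 6.9e-07 and 5.4e-08), as did NDRG1, a stress-responsive gene, with -1.36 and -1.07 (adjusted p = 1.9e-08 and 9.7e-08). The mitochondrial thioredoxin reductase TXNRD2 rose at 8 h and fell at 24 h, with 0.31 and -0.44 (adjusted p = 0.00079 and 3.2e-05). The selenoprotein SELENOH rose by 0.24 at 8 h (adjusted p = 0.0043), with 0.15 at 24 h (adjusted p = 0.054). PGF, an angiogenic growth factor, was not called, at -0.08 and 0.83 (adjusted p = 0.9 and 0.088).

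Secreted and membrane enzymes that take up zinc from the SLC30A5, SLC30A6 and SLC30A7 proteins were listed as 6 genes, of which 3 were tested. NT5E, the ectonucleotidase that makes adenosine, fell at 8 h and further at 24 h, with -0.20 and -0.61 on the log2 scale (adjusted p = 0.00012 and 7.9e-10). ENPP1, an ectonucleotide pyrophosphatase, fell at 8 h and rose at 24 h, with -0.17 and 0.32 (adjusted p = 0.007 and 3.7e-05). ALPP, placental alkaline phosphatase, was lower at 8 h (log2 fold change -0.79, adjusted p = 0.013) and higher at 24 h (2.0, adjusted p = 1.8e-07). Its level was low, at 0.734, 0.427 and 2.96 CPM in untreated, 8 h and 24 h cells. Reads that ALPP may share with close copies were not looked for, and its copy ALPG had at most 2 counts.

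The genes with the pattern most like MT2A, MT1X and SLC30A1 were sought by Pearson's correlation of log2 CPM over the 9 libraries among the 11919 genes with a mean of at least 100 counts. For MT2A they were ACO1 (r = 0.992), PNPLA3 (r = 0.990) and ITGA3 (r = 0.989). For MT1X they were LINC00667 (r = 0.991), SNX2 (r = 0.990) and ZNF768 (r = 0.990), and for SLC30A1 they were AMD1 (r = 0.994), CYB5B (r = 0.992) and EEF2K (r = 0.990). Correlation ignores size, and each fell by less than the gene it was matched to. At 8 h and 24 h the log2 fold changes of ACO1 were -0.19 and -0.26. Those of PNPLA3 were -0.57 and -0.79, and of ITGA3 -0.35 and -0.47. LINC00667 had -0.26 and -0.49, SNX2 -0.20 and -0.32, and ZNF768 -0.61 and -1.01. AMD1 had -0.69 and -0.66, CYB5B -0.44 and -0.45, and EEF2K -0.35 and -0.36. MT2A and MT1E had r = 0.968, and MT1E and MT1X r = 0.978. The points share libraries and fall into 3 groups, so these values mostly describe the group means.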

How the data were processed

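RNA-Seq of polyadenylated RNA had been performed in 3 groups of 3 libraries. The authors checked reads with FastQC, aligned 100 bp read pairs to hg38 with HISAT2, and ran featureCounts over exons, by gene name, as reverse-stranded. The deposited values are raw counts, not normalized, in 1 column per library. The authors used DESeq2.

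Here, edgeR 4.0.16 in R 4.3.3 kept 16556 genes (filterByExpr, minimum count 10), which held 99.95% of the counts. Libraries were scaled by TMM factors of 0.978 to 1.039 and fitted in 1 quasi-likelihood model with group as the only term. Calls used an adjusted p under 0.05 (Benjamini-Hochberg, all 16556 genes). Ratios were compared by exact permutation. The common biological coefficient of variation was 0.0481. The procedure was tested on simulated data.

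The 10 genes and the lists were chosen with earlier results of these data known. All 10 were named whatever their values, along with listed targets, enzymes and transporters with enough reads, and the 3 genes most correlated with MT2A, MT1X and SLC30A1. Replicate numbers are not stated to pair the libraries. Between libraries of the same number, deviations from group means had correlations of -0.0801 to 0.0383, which cannot show whether they were paired. No 2 libraries of a group agreed within counting noise. Alternatives were RLE and upper-quartile factors, mitochondrial or metallothionein genes left out of library sizes, DESeq2 1.42.0, no filter, 10 counts in every library, only the groups compared, a replicate block, stricter thresholds, and each library left out. Counting error is the least error of any value. Protein sequences and the other cell lines were not used here.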

Additional observations from a re-analysis of the deposited data

Results flagged for a closer look

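The change after TEPA differed between 24 h and 8 h for 5 of the 10 genes, by edgeR's quasi-likelihood test of the 24 h against the 8 h libraries with Benjamini-Hochberg adjustment. Of all genes tested, 28.8% were called lower and 26% higher by the same test. MT1E was lower at 24 h by a log2 fold change of -1.09 (adjusted p = 2.2e-08), having been at -1.30 and -2.39 against untreated cells. MT1X differed by -0.78 (adjusted p = 0.00013), from -1.06 at 8 h to -1.84 at 24 h. MT2A differed by -0.46 (adjusted p = 0.00043), from -1.15 to -1.60. SLC30A4 differed by -0.43 (adjusted p = 0.0095), from -0.16 to -0.60. MTF1 differed in the other direction, by 0.25 (adjusted p = 0.00021), from -0.03 to 0.22. For each of the 5 genes the 3 libraries at 24 h lay outside the range of the 3 at 8 h, as for 62% of all genes.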

How the results depend on the processing

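Under all 20 alternatives, MT1E, MT1X, MT2A and SLC30A1 remained called lower than in untreated cells at both times. Their log2 fold changes at 24 h ranged from -2.44 to -2.32 for MT1E, -1.94 to -1.66 for MT1X, -1.73 to -1.52 for MT2A and -1.18 to -1.03 for SLC30A1. The number of the 10 genes called higher at 24 h, 1, became 2 with no filter and 0 with a log2 limit of 0.5, and was 1 to 2 when 1 library was left out (2 without TEPA 24 h replicate 2, where SLC30A7 was added). Between 24 h and 8 h, the 1 gene called higher became 0 with that limit and 1 to 3 with 1 library left out (2 without TEPA 8 h replicate 1, 3 without TEPA 24 h replicate 2). The 4 called lower became 2 with the limit. Of all genes, 4253 of 16556 were called higher at 24 h, 4313 of 30057 with no filter and 1695 of 16556 with the limit. Without TEPA 24 h replicate 2 it was 3950 of 16849. Between 24 h and 8 h, 4309 of 16556 genes were called higher and 1716 with the limit. That was 4034 of 16860 without TEPA 8 h replicate 1 and 4077 of 16849 without TEPA 24 h replicate 2. Called lower were 4770 genes, and 1789 with the limit. Genes not called changed sign when 1 library was left out, with ranges of -0.0506 to 0.0609 for SLC30A7 at 8 h, -0.0239 to 0.0242 for GUSB at 24 h and, between the 2 exposures, -0.143 to 0.00584 for SLC30A1, -0.0393 to 0.0604 for SLC30A6 and -0.00765 to 0.148 for SLC30A9. The cause was not tested. The log2 fold change of SLC39A10 between 8 h and 24 h, 0.17 (adjusted p = 0.009 by edgeR), became 0.14 (adjusted p = 0.05) without TEPA 8 h replicate 3. The replicate block used numbers that are not stated to pair the libraries. It changed no call of the 10 genes (6 lower at 8 h, 7 lower and 1 higher at 24 h). It left 3958 genes higher and 3821 lower at 8 h, and 4087 and 4268 at 24 h. Having 3 libraries per group and a concentration given as 4 or 8 mM limits these comparisons, and the harvest time of the untreated libraries is not given.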
